A study of Mus musculus domesticus and Mus musculus domesticus x Mus musculus castaneus and Mus musculus castaneus with 10 samples.

Results

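The LIF and STAT3 pathway genes described here were Lif, Lifr, Il6st, Jak1, Stat3, Socs3, Gbx2 and Pim1, a set of 8 genes chosen by symbol and matched to their Ensembl identifiers. Counts of 7 of the 8 were analysed, among 26808 genes in all, and Pim1 was not analysed here. Each of the 7 had at least 10 counts in total over both libraries, the minimum set for a ratio, which 13824 of the 26808 genes reached.

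Leukemia inhibitory factor (LIF) is a secreted cytokine of the interleukin-6 family that keeps mouse pluripotent stem cells undifferentiated in culture. It binds a receptor made of the LIF receptor and the shared signalling chain gp130, whose associated Janus kinases phosphorylate the transcription factor STAT3, which then enters the nucleus and activates genes such as Socs3, Klf4 and Tfcp2l1. The SOCS3 protein binds gp130 and the Janus kinases and damps the signal, and a parallel arm through the phosphatase SHP2 leads to the ERK kinases.

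The study followed up expression differences seen in hybrid mouse stem cells by sequencing RNA from undifferentiated cells of inbred strains and of a hybrid. The cells used here were homozygous CAST/EiJ induced pluripotent stem cells, made from embryonic fibroblasts with retroviral vectors carrying Oct4 (Pou5f1), Sox2 and Klf4, and they were sequenced in 2 libraries of polyadenylated RNA. They were grown on irradiated mouse embryonic fibroblasts in medium with serum, serum replacement and added LIF protein, and feeders were depleted before RNA was extracted. Not analysed here, of the 10 samples of the study, were 4 libraries of the 129S6/SvEv embryonic stem cell line and 4 libraries of the 129Cas hybrid line. The labels do not say whether both CAST libraries came from separate cultures or from 1 line, and each carries a batch entry of its own, which means that a difference between batches and one between replicates cannot be told apart.

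The depth was 14460393 counts in CAST replicate 1 and 13728098 in replicate 2. The level of a gene was its count per 1000000 counts in that library (CPM), and ratios between genes, shares of a family and the order of genes were taken after division by the length of annotated exon in kilobases. The gene named as highest in mean CPM within a list was found without that division, and so were summed levels of a list. Fold differences and log2 ratios between the libraries were taken after TMM scaling (a correction for composition) and the addition of 0.5 CPM, so that they are not the plain quotient of the CPM values printed beside them. The interval in parentheses after a log2 ratio is that of the scaled ratio of counts without the added 0.5 CPM, so that for genes with few counts the printed ratio lies nearer 0 than the middle of its interval. Intervals are 95% intervals that cover counting error only. With 1 library on each side of a ratio, a difference between the libraries had no replicate check and no p-value was computed. A value of 3 counts, the one-sided limit used here for a count of 0, equals 0.207 CPM in replicate 1 and 0.219 CPM in replicate 2.

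The cells carried the markers of pluripotent stem cells. Of 14 such genes, 12 were analysed, and none of them was at 0. Their summed level was 6127 CPM in replicate 1 and 4486 CPM in replicate 2, and the highest in mean CPM was Utf1, a chromatin factor of undifferentiated cells, at 832 and 804 CPM. Nanog and Dppa5a were not analysed here. At least 2-fold higher in replicate 1 were 3 of the 12, the transcription factors Tbx3, Klf2 and Klf4, named after their values were seen, beside 4.98% of all genes tested. None was at least 2-fold higher in replicate 2, beside 4.13% of all genes. Higher in replicate 1 after scaling were 9 of the 12, beside 50.4% of all genes tested. Pou5f1, at 547 and 731 CPM, Prdm14, at 120 and 143 CPM, and Utf1 were not. The counts of Pou5f1, Sox2 and Klf4, which retroviral vectors carried into these cells, may include vector transcripts, which was not tested.

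Ordered by their mean level per kilobase, the genes ran from Socs3 through Jak1, Stat3, Il6st, Lifr and Lif to Gbx2. Among neighbours in this order, the ranges over both libraries were apart between Jak1 and Stat3 and between Lif and Gbx2. The ranges of Socs3 and Jak1 overlapped, as did those of Stat3 and Il6st, of Il6st and Lifr, and of Lifr and Lif. The ranges alone thus did not separate these neighbours, but they do not pair the genes within a library. Within each library taken alone, Socs3 was above Jak1, Il6st above Lifr and Lifr above Lif, whereas Stat3 and Il6st changed places between the libraries. In replicate 1 the lead was small for Socs3 over Jak1, at 18.8 against 18.2 CPM per kilobase, and for Lifr over Lif, at 7.05 against 6.98. The place of Socs3 above Jak1 rested on the length used. In CPM, Jak1 was above Socs3 in both libraries, at 132 and 146 CPM against 54.2 and 116 CPM. With the length of the longest transcript, Jak1 was above Socs3 in replicate 1 and below it in replicate 2. Per kilobase of exon, the inhibitor and the kinase thus stood above, STAT3, the receptors and the ligand between, and a scarce target gene below.

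**Figure D1:**
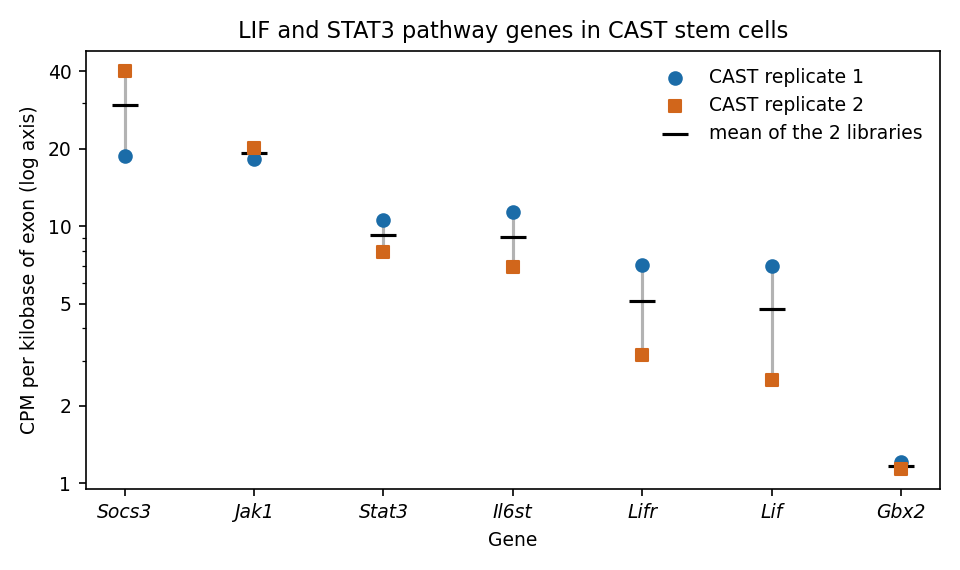
Level of each LIF and STAT3 pathway gene in the 2 CAST libraries, as CPM per kilobase of exon on a log axis; circles are replicate 1, squares replicate 2, and black dashes their mean. Socs3 spans 18.8 to 40.2, whereas Gbx2 lies at 1.21 and 1.14.

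Between the libraries, 3 of the 7 genes were at least 2-fold apart. Lif and Lifr were higher in replicate 1 and Socs3 was higher in replicate 2, whereas Il6st, Jak1, Stat3 and Gbx2 differed by less than 2-fold. Of all 13824 genes, 9.11% were at least 2-fold apart in either direction, 4.98% being higher in replicate 1 and 4.13% higher in replicate 2. Among the 9926 genes whose mean level reached 5 CPM, a limit that leaves out Gbx2 but none of the other 6 genes, the shares were 5.46% in either direction, 3.18% higher in replicate 1 and 2.28% higher in replicate 2. The count of 3 in 7 is above these shares, but the list is small and was chosen with results known. Over the 7 genes the median log2 ratio (replicate 1 over replicate 2) was 0.36, and over all genes tested it was 0.00.

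Lif (ENSMUSG00000034394) encodes the ligand and lies at chr11:4257557-4272514 on the plus strand of GRCm38. It had 439 counts in replicate 1 and 151 in replicate 2, or 30.4 CPM (27.6 to 33.3) and 11.0 CPM (9.31 to 12.9), with a mean of 20.7 ± 13.7 CPM (SD, n = 2). After scaling, replicate 1 was 2.58-fold higher, a log2 ratio of 1.37 (1.14 to 1.68), and the counting intervals of both levels were apart. A higher ratio was found in 1.87% of all genes tested. Both libraries therefore held Lif transcripts, from cells that were also supplied with LIF protein in the medium, and these transcripts were more abundant in replicate 1.

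The cells had been grown on fibroblasts, and most fibroblast markers differed between the libraries in the same direction as Lif. Of 16 fibroblast markers, 15 reached the minimum, 13 of these were higher in replicate 1, as were 50.4% of all genes tested, and none was at least 2-fold higher in replicate 2, beside 4.13% of all genes. At least 2-fold higher in replicate 1 were 8 of the 15, beside 4.98% of all genes. Their median log2 ratio was 1.09, and their summed level was 6739 CPM in replicate 1 and 4154 CPM in replicate 2. The highest in mean CPM was Fn1, the matrix protein fibronectin, at 2401 and 2002 CPM, and none was at 0. Col1a1 followed, at 1726 and 777 CPM. Several markers were low, among them Lum, at 2.07 and 1.31 CPM, and Twist2, with 3 and 2 counts. Dcn, at 3.25 and 3.21 CPM, and Pdgfrb, at 6.15 and 6.63 CPM, were the tested markers not higher in replicate 1 after scaling. By mean level per kilobase Sparc and Col1a1 stood above Fn1, but neither did so in both libraries. In bulk samples, fewer cells of a type and less RNA per cell cannot be told apart. The part of fibroblast RNA in the level of Lif, or of the other genes that were higher in replicate 1, was not tested.

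Among the other ligands of the family, 4 of 8 reached the minimum and none was at least 2-fold apart, beside 9.11% of all genes tested. Oncostatin M (Osm), which signals through gp130 as well, was the highest of them in mean CPM, at 16.7 CPM in replicate 1 and 12.2 CPM in replicate 2. Per kilobase, Lif made up 32.8% of the summed level of the 9 ligands in replicate 1 and 18.1% in replicate 2, beside 34.6% and 38.4% for Osm. Lif and Osm thus stood at similar levels per kilobase in replicate 1, with a ratio of Lif to Osm of 0.947, and Lif was the lower in replicate 2, with a ratio of 0.472. Cntf and Il27 were at 0 in both libraries.

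Lifr (ENSMUSG00000054263, chr15:7090614-7197489, plus strand) encodes the chain that gives the receptor its affinity for LIF. It had 1099 counts in replicate 1 and 468 in replicate 2, or 76.0 CPM (71.6 to 80.6) and 34.1 CPM (31.1 to 37.3), with a mean of 55.0 ± 29.6 CPM (SD, n = 2). Replicate 1 was 2.12-fold higher, a log2 ratio of 1.09 (0.94 to 1.26), the lower bound of which lies below 2-fold. A higher ratio was found in 4.03% of all genes tested, so that Lifr stood less far out than Lif.

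Il6st (ENSMUSG00000021756, chr13:112464070-112510086, plus strand) encodes gp130, the chain that LIF, interleukin-6 and their relatives share. It had 1814 and 1052 counts, or 125 CPM in replicate 1 and 76.6 CPM in replicate 2, with a mean of 101 ± 34.5 CPM (SD, n = 2). Replicate 1 was again the higher, by 1.57-fold, a log2 ratio of 0.65 (0.54 to 0.76). Per kilobase, the level of Il6st was 1.60 times that of Lifr in replicate 1 and 2.18 times in replicate 2, so the shared chain was the more abundant in both libraries while the proportion between the chains was not fixed.

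Of 5 other receptor genes of the family, 4 were analysed, and Il11ra1 was not analysed here. Il6ra, the interleukin-6 binding chain, was at 11.9 CPM in replicate 1 and 3.64 CPM in replicate 2, a log2 ratio of 1.53 (1.19 to 2.13). Osmr, which pairs with gp130 to bind oncostatin M, was at 6.43 and 2.04 CPM, a log2 ratio of 1.40 (0.98 to 2.26). Both were higher in replicate 1, as Lifr and Il6st were. Il27ra, the interleukin-27 receptor, was the exception past 2-fold, at 0.622 CPM in replicate 1 and 2.11 CPM in replicate 2, a log2 ratio of -1.26 (-3.09 to -0.70) from 9 and 29 counts. The highest of these receptors in mean CPM was Cntfr, which binds ciliary neurotrophic factor, at 6.09 and 9.62 CPM, although Il6ra and Osmr were above it in replicate 1. Per kilobase, Lifr exceeded Il6ra by 5.12 times in replicate 1 and 7.51 times in replicate 2, and Il6st exceeded Osmr by 21.3 and 41.0 times. With the length of the longest transcript, Il6st exceeded Osmr by 12.3 times in replicate 1 and 23.8 times in replicate 2.

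Jak1 (ENSMUSG00000028530, chr4:101152367-101265282, minus strand) encodes a Janus kinase bound to gp130 and the LIF receptor. It had 1907 counts in replicate 1 and 2004 in replicate 2, or 132 and 146 CPM, with a mean of 139 ± 9.97 CPM (SD, n = 2). Its log2 ratio was -0.20 (-0.30 to -0.11), so Jak1 was slightly the lower in replicate 1, the opposite direction to Lifr and Il6st. Its exons overlap those of Raver2 on the other strand by 4 bases.

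None of the other 3 Janus kinases was at least 2-fold apart, beside 9.11% of all genes, a share that so few genes cannot be read against. Jak3, the kinase of the common gamma chain receptors, was the highest of them in mean CPM, at 74.3 CPM in replicate 1 and 61.8 CPM in replicate 2. Tyk2, which serves interferon and interleukin receptors, was at 30.0 and 26.4 CPM. Jak2, which serves hormone-type cytokine receptors, was at 18.3 and 24.2 CPM. Per kilobase, Jak1 made up 45.4% of the summed level of the 4 kinases in replicate 1 and 50.0% in replicate 2, beside 34.6% and 28.6% for Jak3, so that Jak1 led the family in both libraries.

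Stat3 (ENSMUSG00000004040, chr11:100885098-100939540, minus strand) encodes the transcription factor of the pathway. It had 1456 counts in replicate 1 and 1034 in replicate 2, or 101 and 75.3 CPM, with a mean of 88.0 ± 17.9 CPM (SD, n = 2). Replicate 1 was 1.28-fold higher, a log2 ratio of 0.36 (0.24 to 0.48), and a higher ratio was found in 23.4% of all genes tested, so Stat3 lay well within the common spread. A stretch of 72 bases of its exons overlaps the neighbouring Stat5a on the other strand, which is 0.756% of its exon length. The level of the STAT3 protein or of its phosphorylated form was not measured.

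Of 5 other STAT genes, none was at least 2-fold apart, beside 9.11% of all genes, a share that so few genes cannot be read against. Stat6, the factor of interleukin-4 signalling, was the highest of these in mean CPM, at 54.9 CPM in replicate 1 and 58.2 CPM in replicate 2. Stat2, of the interferon route, was at 31.5 and 45.0 CPM. Stat5b, of hormone and cytokine receptors, was at 11.0 and 5.54 CPM, with the log2 ratio farthest from 0 in this class, 0.87 (0.53 to 1.35). Its close relative Stat5a was at 6.57 and 7.72 CPM. Stat4, the interleukin-12 factor, was at 4.84 and 3.50 CPM. Per kilobase, Stat3 made up 32.5% of the summed level of these 6 STAT genes in replicate 1 and 24.9% in replicate 2, below Stat6 at 38.4% and 41.7%. The place of Stat3 beside Stat6 rested on the length used, since in CPM Stat3 was above Stat6 in both libraries, and with the length of the longest transcript it was 1.15 times Stat6 in replicate 1 and 0.809 times in replicate 2. Per kilobase of exon, Stat3 was 5.32 times Stat5b in replicate 1 and 7.91 times in replicate 2.

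Socs3 (ENSMUSG00000053113, chr11:117966079-117970047, minus strand) encodes the feedback inhibitor and is itself a STAT3 target. It had 784 counts in replicate 1 and 1596 in replicate 2, or 54.2 CPM (50.5 to 58.1) and 116 CPM (111 to 122), with a mean of 85.2 ± 43.9 CPM (SD, n = 2). Replicate 2 was 2.22-fold higher, a log2 ratio of -1.15 (-1.28 to -1.04), and the whole counting interval lay past 2-fold. A lower ratio was found in 2.94% of all genes tested. The library with more Socs3 transcript was therefore the library with less Lif, Lifr and Il6st transcript.

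Within each library, Socs3 exceeded Stat3 per kilobase by 1.77 times in replicate 1 and 5.09 times in replicate 2. It exceeded Lifr by 2.66 times in replicate 1 and 12.7 times in replicate 2. These ratios are free of the scaling between libraries, and both were larger in replicate 2. Their size rested on the length used. In CPM, Socs3 was 0.538 times Stat3 and 0.713 times Lifr in replicate 1, and 1.54 and 3.41 times in replicate 2. With the length of the longest transcript, Socs3 was 1.27 and 3.65 times Stat3 in replicates 1 and 2, and 2.70 and 12.9 times Lifr. In the SOCS family, Socs3 made up 42.5% of the summed level per kilobase of 7 genes in replicate 1 and 69.8% in replicate 2.

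Of 14 other inhibitors, 13 were analysed, and Socs6 was not analysed here. Socs2, which restrains growth hormone signalling, was at 61.3 CPM in replicate 1 and 27.2 CPM in replicate 2, a log2 ratio of 1.10 (0.93 to 1.29). Socs5, a relative with a long amino-terminal region, was at 15.5 and 6.99 CPM, a log2 ratio of 1.04 (0.74 to 1.45). These relatives of Socs3 were higher in replicate 1, the opposite direction to Socs3 itself. Ptpn6, the phosphatase SHP1, moved with Socs3, at 18.9 CPM in replicate 1 and 37.2 CPM in replicate 2, a log2 ratio of -1.02 (-1.25 to -0.82). Past 2-fold were thus 3 of the 13, beside 9.11% of all genes. The other 10 differed by less than 2-fold, and Pias2, a SUMO ligase of the family that inhibits STAT factors, was the highest in mean CPM, at 356 and 361 CPM. The median log2 ratio of the 13 inhibitors was -0.08.

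Gbx2 (ENSMUSG00000034486, chr1:89927956-89931179, minus strand) encodes a homeobox transcription factor that is a target of STAT3 in stem cells. It had 38 counts in replicate 1 and 34 in replicate 2, or 2.63 and 2.48 CPM, with a mean of 2.55 ± 0.107 CPM (SD, n = 2). Its log2 ratio was 0.02 (-0.68 to 0.74), so that a difference within these bounds was not detectable at this depth. Exons of the noncoding gene D130058E05Rik on the other strand cover 946 bases, or 43.5%, of the exon length of Gbx2, and that gene had 39 and 25 counts. The strand setting of the counting is not stated, and without strand the reads of this pair cannot be told apart, so the level of Gbx2 is uncertain. Per kilobase, 26.0% of the genes tested lay below Gbx2, against 86.1% below Socs3 and 78.6% below Jak1.

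The other targets of STAT3 in stem cells were mostly higher in replicate 1. Of 10 genes, 9 were higher in replicate 1, beside 50.4% of all genes tested. At least 2-fold higher in replicate 1 were 4 of the 10, beside 4.98% of all genes, and none was at least 2-fold higher in replicate 2, with a median log2 ratio of 0.61. Myc, a regulator of growth and proliferation, had 422 counts in replicate 1 and 44 in replicate 2, or 29.2 and 3.21 CPM, a log2 ratio of 2.95 (2.68 to 3.61). Fos, a subunit of the factor AP-1, was at 129 and 29.7 CPM, a log2 ratio of 2.04 (1.90 to 2.22). Both genes are also induced within minutes by many stimuli, and both stood further apart between the libraries than any of the 7 LIF and STAT3 pathway genes.

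Klf4, a transcription factor of the naive state, was at 333 CPM in replicate 1 and 147 CPM in replicate 2, a log2 ratio of 1.12 (1.04 to 1.20). Because a retroviral vector carried Klf4 into these cells, its counts may include vector transcripts, which was not tested. Klf5, a related factor that was not among the introduced genes, was at 352 and 163 CPM, a log2 ratio of 1.05 (0.98 to 1.12). Tfcp2l1, a further factor of the naive state, was at 739 and 480 CPM, a log2 ratio of 0.56 (0.52 to 0.61). The direction of these factors was that of Lif, Lifr and Il6st and opposite to that of Socs3.

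Junb, a partner of Fos, was at 29.4 CPM in replicate 1 and 17.6 CPM in replicate 2. Bcl3, a nuclear regulator related to the inhibitors of NF-kappaB, was at 37.9 and 28.5 CPM. Mcl1, a survival factor of the BCL2 family, was the highest of the targets in mean CPM, at 831 and 876 CPM, and was the target that was not higher in replicate 1 after scaling. Of the PIM kinases, which promote survival and growth, Pim3 was at 227 and 198 CPM and Pim2 at 5.95 and 5.39 CPM. Per kilobase, Pim3 was 43.9 times Pim2 in replicate 1 and 42.4 times in replicate 2, so this proportion was nearly the same in both libraries.

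In the SHP2 and ERK arm, 2 of 12 genes were at least 2-fold apart, beside 9.11% of all genes, and the median log2 ratio was 0.15. Etv5, a transcription factor downstream of ERK, was the highest in mean CPM, at 947 CPM in replicate 1 and 740 CPM in replicate 2. Dusp6, a phosphatase that is induced by ERK and inactivates it, was at 6.98 and 2.55 CPM, a log2 ratio of 1.24 (0.83 to 1.99). Spry4, a feedback inhibitor of the route, had 25 and 6 counts, a log2 ratio of 1.21 (0.60 to 3.50). Both were higher in replicate 1, and so was the feedback inhibitor Spry2, which lay just inside the 2-fold limit at a log2 ratio of 0.99 (0.79 to 1.24).

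**Figure D2:**
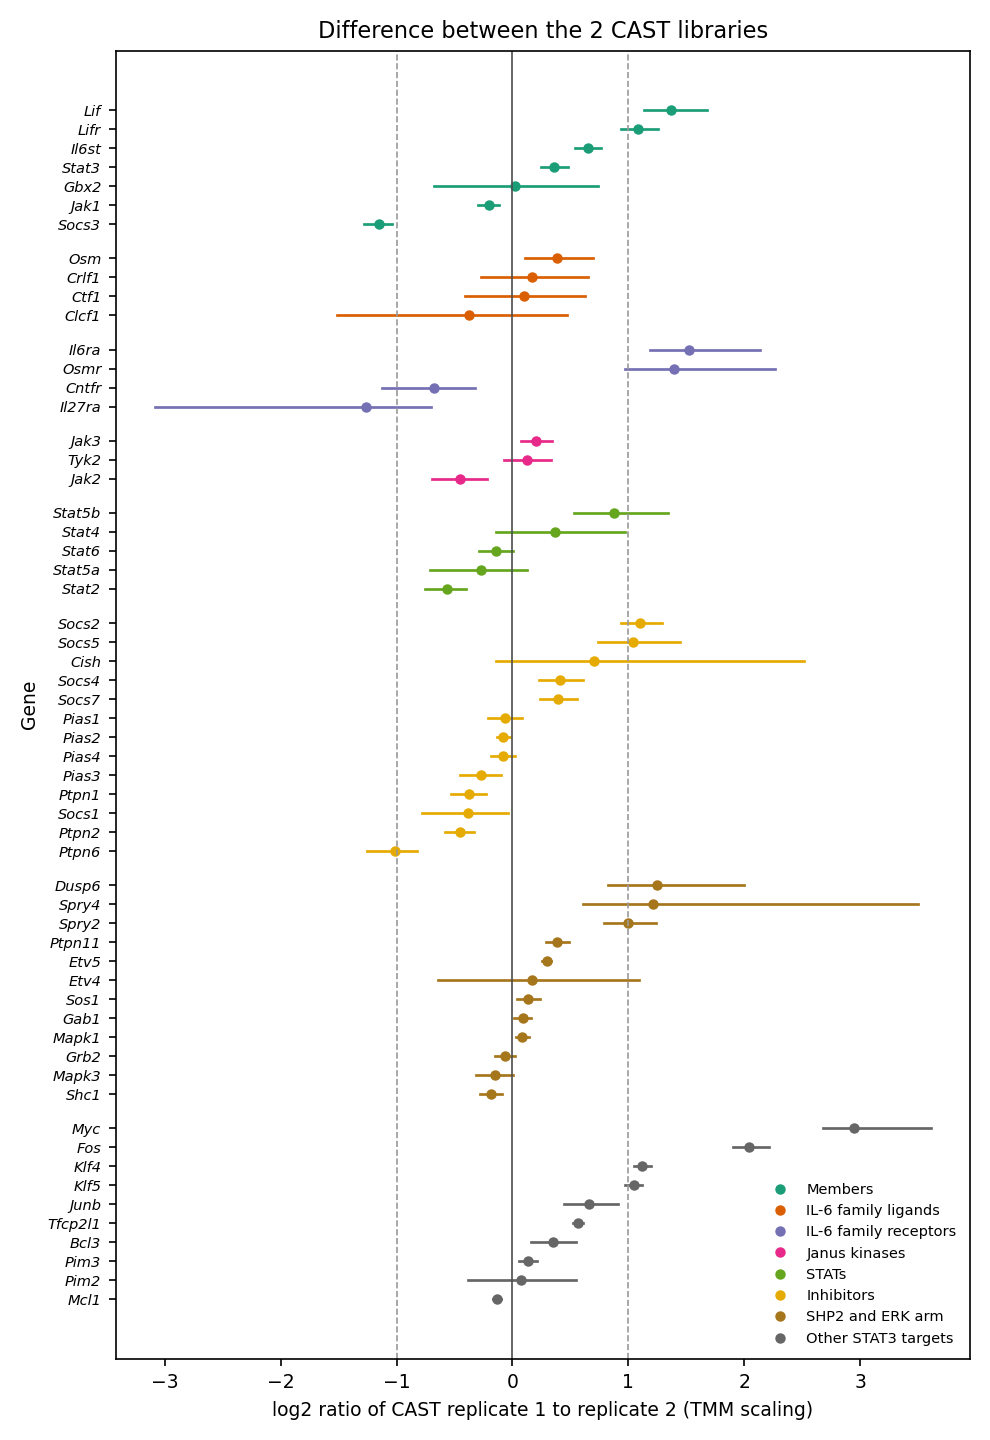
Log2 ratio of CAST replicate 1 to replicate 2 for the 7 LIF and STAT3 pathway genes and 51 other pathway genes, grouped by role; points are ratios after scaling with a pseudocount of 0.5 CPM, bars are 95% intervals of the scaled ratio without that pseudocount, for counting error only, and dashed lines mark 2-fold. Lif (1.37) and Lifr (1.09) lie to the right and Socs3 (-1.15) to the left, and Myc (2.95) lies farthest from 0.

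In all, 12 of the 51 other pathway genes that reached the minimum were at least 2-fold apart, 10 being higher in replicate 1 and 2 higher in replicate 2. Set against the 9.11% of all genes, with 4.98% higher in replicate 1 and 4.13% higher in replicate 2, the excess lay with the genes higher in replicate 1, and the number in the other direction was near that of all genes. With a pseudocount of 2 CPM the number fell to 7, all higher in replicate 1, beside 3.91% of all genes in either direction and 2.17% higher in replicate 1, since Il27ra, Ptpn6, Socs5, Dusp6 and Spry4 were then less than 2-fold apart. The median log2 ratio of the 51 genes was 0.14. This list, too, was chosen with results known, so its excess over all genes is a description only. Of the pluripotency markers 9 of 12, and of the fibroblast markers 13 of 15, were higher in replicate 1, beside 50.4% of all genes tested, Klf4 and Tfcp2l1 being counted among the pluripotency markers and the pathway genes alike, and their part in this was not tested.

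The 3′ untranslated regions (3′ UTRs) of the transcripts were searched for TATTTAT, the core of the AU-rich elements that mark many short-lived cytokine and early response transcripts, because the pathway holds a cytokine and early response genes of this kind. The search ran on the sense strand of 1 transcript per gene, the one with the longest coding sequence, in the GENCODE M21 annotation of GRCm38. The reference is the C57BL/6J sequence and not that of CAST/EiJ, and each match also contains the shorter motif ATTTA. Of 17989 genes with a 3′ UTR, 26.0% held the motif. A match is a description of these letters and not of a working site.

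Lif held 5 matches in a 3′ UTR of 3180 bases, a number that 1.62% of 801 UTRs within 10% of its length reached, and 57.2% of these held at least 1. Socs3 held 2 overlapping matches in 1474 bases, a number reached by 10.2% of 1149 UTRs of like length. Gbx2 held 1 match in 664 bases, and 17.9% of 995 UTRs of like length held at least 1. Lifr, Il6st, Jak1 and Stat3 held none, whereas 74.7%, 69.3%, 27.2% and 41.1% of UTRs of like length held at least 1. The shorter ATTTA was found 11 times in the 6320 bases of Lifr and 9 times in the 5641 bases of Il6st. It was found 7 times in the 3180 bases of Lif and 4 times in the 1474 bases of Socs3. These plain counts were not set against UTRs of like length, so they give no order of the genes. The direction of the difference between the libraries was opposite for Lif and Socs3. The matches of these genes are printed with the bases around them, in the sense of the transcript, with TATTTAT in capitals, to show how closely they are spaced. The printed windows of 24 bases, each holding its match, lie for Lif on the plus strand of GRCm38 at chr11:4270472-4270495, chr11:4270489-4270512, chr11:4272042-4272065, chr11:4272405-4272428 and chr11:4272430-4272453. The window of Socs3 lies on the minus strand at chr11:117966141-117966164 and that of Gbx2 on the minus strand at chr1:89928421-89928444.
Lif site 1: cagctgtcTATTTATtactatgtc
Lif site 2: ctatgtccTATTTATattaactta
Lif site 3: ggggccttTATTTATtatttaaaa
Lif site 4: attattttTATTTATtcaatgtca
Lif site 5: atttaaaaTATTTATtttttatac
Socs3 sites 1 and 2: tgcacataTATTTATATTTATact
Gbx2 site 1: acactaaaTATTTATtatacaacc

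Among the other genes of the pathway, 7 of 55 held at least 3 matches, or 12.7%, beside 3.45% of all 17989 genes with a 3′ UTR, without regard to length. Il11, with 6, and Il27, with 4, did not reach the minimum of counts. Clcf1, with 4, and Osm, Cish and Mcl1, with 3 each, were less than 2-fold apart between the libraries, whereas Spry4, with 4, was at least 2-fold apart. Fos held 2, and Myc, which stood furthest apart, held none. Spry4 had only 25 and 6 counts, and with a pseudocount of 2 CPM its log2 ratio was 0.59, less than 2-fold. With Lif, which held 5 matches, counted as well, genes with several matches were found on both sides of the 2-fold limit.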

How the data were processed

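Polyadenylated RNA of CAST/EiJ stem cells was sequenced in 2 libraries. The authors deposited whole-number counts per gene without normalization. The submitters' processing notes name TopHat2 2.1.1, SAMtools and HTSeq with GRCm38 and mm10 for these samples, whereas the methods of the study name STAR with its gene counts on the genome of the strain, discarding reads that map to several loci; which of these made the table, and its strand setting, are not stated. The labels and the methods also name different RNA kits. A further 7 columns of per-sample values match no sample of the study's list and were not used here.

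Levels were counts divided by the library total (CPM), with exact Poisson intervals, and by the union of annotated exons for levels per kilobase. Log2 ratios used TMM effective library sizes from edgeR 4.0.16 in R 4.3.3 (factors 1.02 and 0.980), a pseudocount of 0.5 CPM, genes with at least 10 counts in total and a 2-fold limit, with exact conditional binomial intervals of the ratio at 95%. DESeq2 1.42.0 gave alternative size factors. Other steps ran in Python 3.11.15 with pandas 2.3.3, scipy 1.17.1, numpy 2.4.6 and, for plots, matplotlib 3.10.9, and the ratio step was tested on simulated data. Symbols, positions, exons and transcript sequences came from GENCODE M21, which named 26807 of the 26808 identifiers. Among the 7 genes, Gbx2 shared 41.5% of its 75-base transcript stretches with another gene, in either orientation, and the other 6 shared none.

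The genes and lists were chosen with earlier results of these data known. Named genes were the 8 pathway genes, the gene highest in mean CPM of each other class and those at least 2-fold apart, every listed Janus kinase, STAT and further STAT3 target (1 gene of the list is not reported here and was left out of its counts), and from marker lists the gene highest in mean CPM and any at 0. Further markers, Spry2 and the genes named for their motif matches were picked once their values were known. The replicates may be technical, and no p-value is given. No gene set was tested.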

Additional observations from a re-analysis of the deposited data

How the results depend on the processing

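No paired analysis was possible because counts of 1 group, CAST, were analysed. With library totals, DESeq2 size factors or pseudocounts of 0.1 and 2 CPM, the number of the 7 genes at least 2-fold apart was 3 each time, and the log2 ratios ranged from 1.26 to 1.42 for Lif, 1.06 to 1.15 for Lifr, 0.64 to 0.71 for Il6st, 0.35 to 0.42 for Stat3, -0.21 to -0.15 for Jak1, -1.16 to -1.09 for Socs3 and 0.01 to 0.07 for Gbx2. With a pseudocount of 2 CPM, 7 rather than 12 of the other pathway genes and 541 rather than 1259 of all genes were at least 2-fold apart, whereas with 0.1 CPM the numbers were 13 and 1811, and with genes of a mean of at least 5 CPM the number over all genes was 542, since low genes are left out. Of the 21 pairs of genes ordered by level per kilobase, 20 to 21 kept their order when 1 replicate was left out; without replicate 2, 20 did, because Il6st (11.3) then stood above Stat3 (10.6). A ratio between the libraries could not be recomputed without a replicate. The 5 CPM limit was planned for the count over all genes, and its share beside the 7 genes was added after seeing the data. For ratios within a library, the length of the longest transcript was an alternative also chosen after seeing the data. With it, Stat3 to Stat6 (1.15) and Lif to Osm (1.02) turned above 1 in replicate 1. Il6st to Osmr fell from 21.3 to 12.3 in replicate 1 and from 41.0 to 23.8 in replicate 2. Socs3 to Socs2 fell from 2.92 to 1.47 in replicate 1 and from 14.1 to 7.09 in replicate 2. With the longest 3′ UTR per gene, likewise added after seeing the data, 28.4% of genes held TATTTAT, and the numbers of matches in the 7 genes were the same. Library totals moved the median log2 ratio of all genes to 0.06. Depth limits Gbx2 and other genes with few counts.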

Other observations

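Markers of differentiated lineages and of neurons were low in summed CPM beside those of pluripotent stem cells, unlike the fibroblast markers. The 12 genes of differentiated lineages summed to 79.8 CPM in replicate 1 and 110 CPM in replicate 2, and the highest in mean CPM was Otx2, a factor of early neural and primed pluripotent cells, at 44.8 and 51.3 CPM. Of the 10 that reached the minimum, Fgf5 was at least 2-fold higher in replicate 1, and T (Brachyury), Gata6 and Pax6 were at least 2-fold higher in replicate 2, all named after their values were seen, beside 4.98% and 4.13% of all genes in these directions. The 8 neuron markers summed to 91.6 and 49.7 CPM, of which Tubb3, a tubulin, made up 81.2 and 44.2 CPM, and Chat and Syt1 were at 0 in both libraries. Of the 5 that reached the minimum, Slc18a3, with 10 counts and 1 count, was at least 2-fold higher in replicate 1, also named after its values were seen, beside the same 4.98%.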
